A study of Ovis aries with 9 samples.

Results

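Neurofilament and axonal growth genes were examined in hypothalamic tissue of Dolang ewes around the onset of puberty. The set held NEFL, NEFM, NEFH, INA, STMN2, GAP43, UCHL1, TUBB3, MAP1B and ENO2. Its members were chosen by their levels in these same libraries, after it had been seen that neurofilament transcripts differed many-fold between libraries, so that range is given as a description with no test. A member was every RefSeq mRNA (NM or XM identifier) of the sheep gene with that symbol, and the values of its transcripts were summed. Values were found for 9 of the 10 listed genes, among 21284 genes with RefSeq mRNAs. TUBB3 was not analysed here.

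The study compared the hypothalamus before, during and after the first estrus. Tissue came from 3 ewes at prepuberty (120 to 121 days of age), 3 at puberty (130 to 131 days) and 3 at postpuberty (150 to 151 days), with 1 library of poly-A RNA for each animal. Stage was assigned from the behaviour and the external genital signs of the ewe, and since each stage also had its own age, the 2 cannot be told apart. Levels are in FPKM, which scales the fragments of a transcript to its length and to the depth of the library, and may therefore be compared between genes.

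Neurofilaments are the intermediate filaments of neurons. In the central nervous system they are built from a light, a medium and a heavy chain (NEFL, NEFM and NEFH) together with alpha-internexin (INA), and they are most abundant in large myelinated axons, whose calibre they help to set. The other members are proteins of the growing or mature neuron: STMN2 binds tubulin dimers and regulates microtubule dynamics, MAP1B binds microtubules in axons, GAP43 is a membrane protein of growth cones and presynaptic endings, UCHL1 is an abundant neuronal deubiquitinating enzyme, and ENO2 is the neuronal form of the glycolytic enzyme enolase. In a piece of brain their mRNA comes mainly from the cell bodies of neurons in the piece. In such bulk tissue fewer neurons and less RNA per neuron cannot be told apart.

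The Puberty 2 library stood apart from the other 8. Its FPKM summed to 599726 over all transcripts, against 359588 to 398109 in the others, and 42441 of its transcripts were above 0, against 67824 to 71787. Ranges and correlations are therefore given over the 8 libraries without Puberty 2 first, and stage comparisons with and without it. Of 19 hypothalamic marker genes, 9 (SIM1, NKX2-1, FEZF1, LHX6, PMCH, GHRH, AGRP, KISS1 and GAL) were below 1 FPKM in all 9 libraries, so that these defining markers were near 0 in the tissue labelled hypothalamus. Somatostatin (SST) reached 4.27 to 107 FPKM, and the hypothalamic transcription factor OTP 0 to 4.91 FPKM. Other genes of the list were present in part of the libraries or in all of them. NKX2-2 had 4.25 to 18.3 FPKM, POMC 2.09 to 22.4 FPKM, TRH 0.824 to 36.8 FPKM and NPY 0.222 to 22.7 FPKM. The rest of the list was lower at its highest, with 0.551 to 10.4 FPKM of AVP and 0.319 to 4.81 FPKM of OXT. TAC3 had 0.156 to 3.49 FPKM and HCRT 0.144 to 1.68 FPKM. Glial mRNA was abundant in every library, with 2348 to 6624 FPKM of the astrocyte filament GFAP and 1112 to 7824 FPKM of myelin basic protein (MBP).

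The light chain gene NEFL (chromosome 2, 40732233 to 40737966, assembly ARS-UI_Ramb_v3.0) had 260, 297 and 434 FPKM in the prepuberty libraries 1, 2 and 3, 348, 97.8 and 310 FPKM in the puberty libraries, and 54.8, 346 and 500 FPKM in the postpuberty libraries. Its level in Postpuberty 1 was the lowest and in Postpuberty 3 the highest, so 1 stage held both ends of the range. NEFM, which encodes the medium chain, lies next to NEFL on chromosome 2 (40763601 to 40768905). It had 75.2, 238 and 444 FPKM at prepuberty, 371, 42.9 and 110 FPKM at puberty, and 22.0, 327 and 565 FPKM at postpuberty. The lowest and the highest NEFM libraries were again Postpuberty 1 and Postpuberty 3, and the 3 stages overlapped.

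The heavy chain gene NEFH (chromosome 17, 68699310 to 68707062) was the least abundant member. It had 5.09, 6.62 and 19.2 FPKM at prepuberty, 10.4, 0.203 and 4.81 FPKM at puberty, and 3.24, 40.8 and 16.2 FPKM at postpuberty. Unlike the light and medium chains it was highest in Postpuberty 2. Alpha-internexin (INA, chromosome 22, 23575768 to 23588318) had 22.6, 111 and 61.1 FPKM at prepuberty, 94.3, 21.4 and 79.5 FPKM at puberty, and 24.0, 116 and 63.7 FPKM at postpuberty. INA was low in 3 libraries, 1 in each stage (Prepuberty 1, Puberty 2 and Postpuberty 1), and the other 6 lay well above them.

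STMN2 (chromosome 9, 55888846 to 55947813) had 124, 254 and 224 FPKM at prepuberty, 299, 107 and 215 FPKM at puberty, and 81.8, 241 and 308 FPKM at postpuberty. Its 3 low libraries were those in which INA was low. MAP1B (chromosome 16, 9521528 to 9614732) had 25.9, 61.4 and 47.0 FPKM at prepuberty, 73.9, 0.824 and 28.7 FPKM at puberty, and 18.8, 55.2 and 52.0 FPKM at postpuberty. Puberty 2 was far below every other library for this gene. Of the 4 RefSeq transcripts of MAP1B, the one that made up 47.3% to 83.8% of its FPKM in the other libraries was listed at 0 in Puberty 2.

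GAP43 (chromosome 1, 181212841 to 181318295) had 73.1, 171 and 68.6 FPKM at prepuberty, 94.4, 36.8 and 43.2 FPKM at puberty, and 52.9, 151 and 93.4 FPKM at postpuberty. GAP43 was highest in Prepuberty 2 and Postpuberty 2, as INA and ENO2 were, and it was the only member whose lowest library among the 8 was Puberty 3. UCHL1 (chromosome 6, 60857878 to 60869866) had 190, 428 and 318 FPKM at prepuberty, 347, 265 and 285 FPKM at puberty, and 128, 398 and 477 FPKM at postpuberty. Puberty 2 lay within the range of the other libraries for UCHL1 and close to Puberty 3. ENO2 (chromosome 3, 209380785 to 209388888) had 56.6, 311 and 128 FPKM at prepuberty, 186, 101 and 173 FPKM at puberty, and 89.8, 257 and 179 FPKM at postpuberty. Both the lowest and the highest ENO2 libraries were prepubertal.

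**Figure D1:**
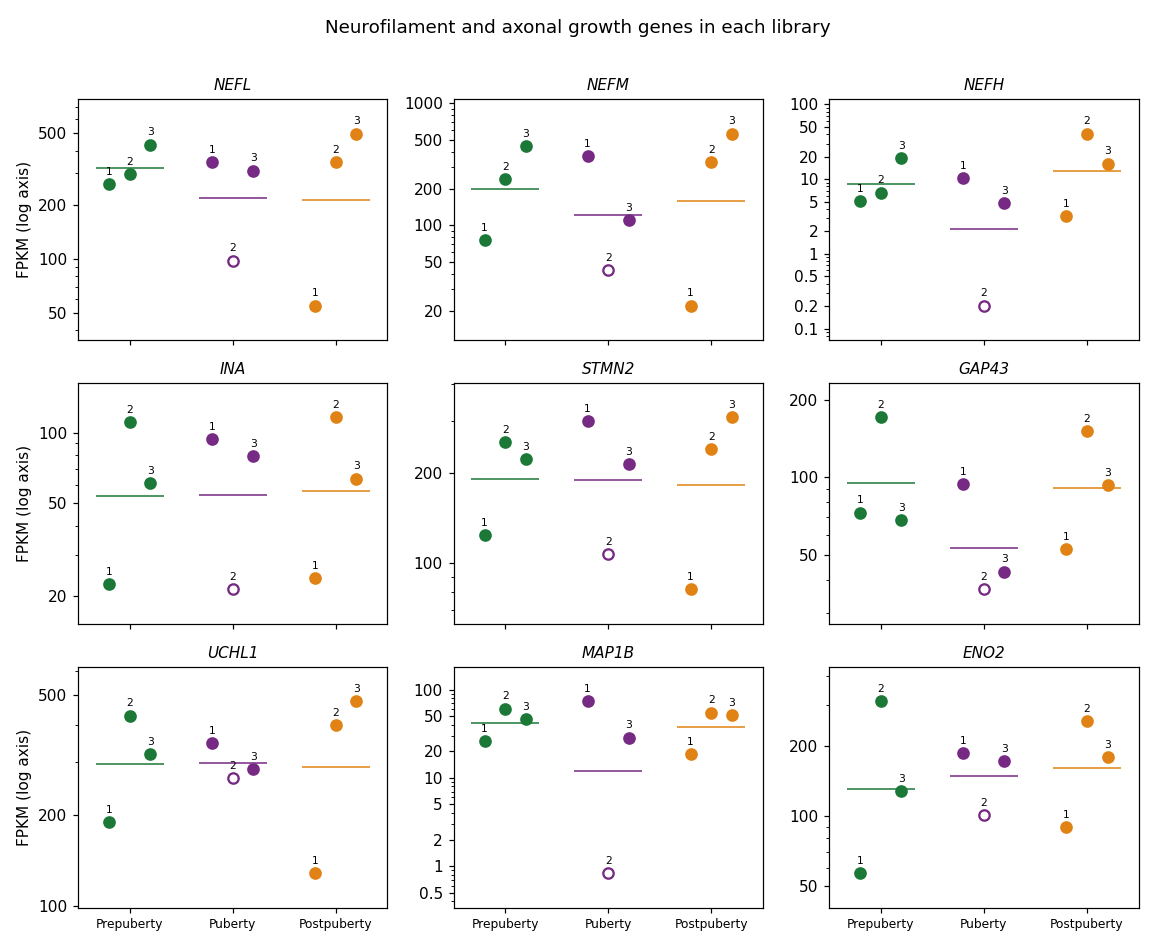
FPKM of each of the 9 members (log axis, scaled for each gene) in the libraries of prepuberty, puberty and postpuberty; points are libraries labelled with their replicate number, the open point is Puberty 2, and horizontal lines are geometric means of 3 libraries. The stages overlap for every member, and the low points are mostly Prepuberty 1, Puberty 2 and Postpuberty 1.

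By mean FPKM over the 8 libraries, UCHL1 (321 ± 118, SD, n = 8) and NEFL (319 ± 132) were the most abundant members, followed by NEFM (269 ± 191), STMN2 (218 ± 79.1) and ENO2 (172 ± 83.3). GAP43 (93.4 ± 45.4), INA (71.6 ± 35.8) and MAP1B (45.4 ± 19.2) were lower, and NEFH was lowest (13.3 ± 12.5). Each gene differed from the next in this order by less than the larger of their 2 SDs, except that NEFH lay further below MAP1B.

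The range between libraries was widest for NEFM. Its highest library was 25.6-fold above its lowest, and its SD on the log2(FPKM + 1) scale was 1.57, larger than that of 99.5% of the 12322 genes with a mean of at least 1 FPKM. NEFH had a 12.6-fold range (97.8th percentile of the SD) and NEFL a 9.11-fold range (96.6th percentile). INA ranged 5.15-fold and ENO2 5.49-fold. The least variable members were UCHL1 (3.72-fold, 87.5th percentile), STMN2 (3.76-fold), MAP1B (3.94-fold) and GAP43 (3.95-fold). The median gene ranged 1.97-fold, and the median SD was 0.27 over all genes, 0.79 over the members and 0.68 over 27 other neuron genes.

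Much of the width of the NEFL range came from 1 library. Without Postpuberty 1, NEFL ranged 1.92-fold over the remaining 7 libraries and its SD stood at the 60.8th percentile. NEFM and NEFH still ranged 7.51-fold and 8.49-fold, at percentiles 97.5 and 97.3, and STMN2 and UCHL1 narrowed to 2.48-fold and 2.52-fold. Over these 7 libraries the median SD was 0.67 for the members, 0.67 for the 27 other neuron genes and 0.26 for all genes. With all 9 libraries instead, the range of NEFH widened to 201-fold and that of MAP1B to 89.7-fold, each through Puberty 2, while those of NEFL, NEFM, STMN2, UCHL1 and ENO2 kept their ends.

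**Figure D2:**
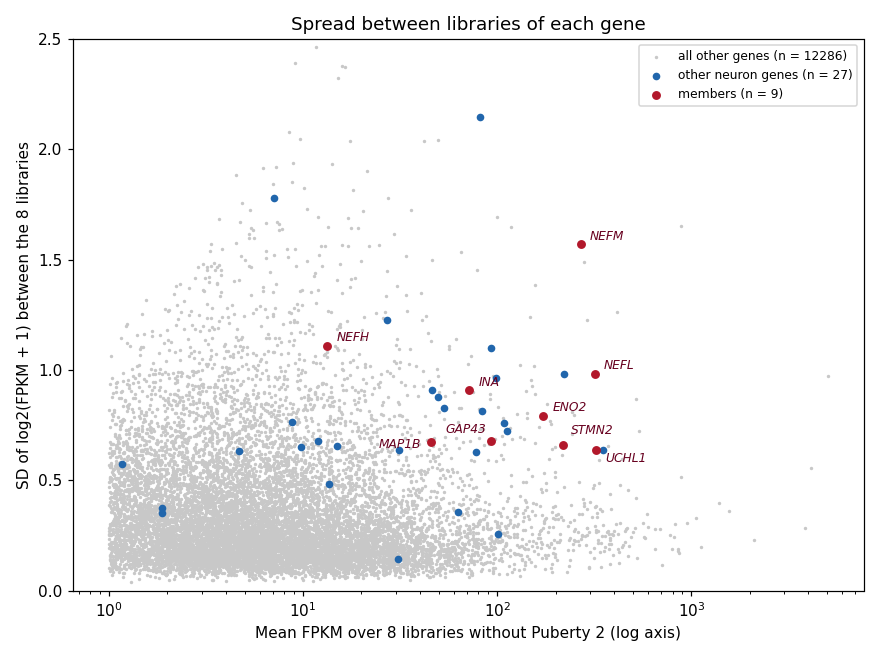
SD of log2(FPKM + 1) between 8 libraries (linear axis) against mean FPKM (log axis) for 12322 genes, with the 9 members in red and 27 other neuron genes in blue; 10 genes above an SD of 2.5 are not drawn. All 9 members lie above the median SD of 0.27, with NEFM at 1.57 and UCHL1 at 0.64.

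Postpuberty 1 was the lowest of the 8 libraries for 6 of the 9 members (NEFL, NEFM, NEFH, STMN2, UCHL1 and MAP1B), Prepuberty 1 for 2 (INA and ENO2) and Puberty 3 for 1 (GAP43). The highest library was Postpuberty 3 for 4 members, Prepuberty 2 for 2, Postpuberty 2 for 2 and Puberty 1 for 1. In Postpuberty 1 the summed FPKM of 5 fibroblast and meningeal genes was 167, in Puberty 3 it was 139 and in Prepuberty 1 it was 133, against 22.2 to 72.9 in the other 5 of these libraries. All 5 genes of that list were measured, and their sum ranged from 25.3 to 133 FPKM at prepuberty, 15.9 to 139 FPKM at puberty and 22.2 to 167 FPKM at postpuberty. The summed FPKM of 10 oligodendrocyte genes was likewise highest in Prepuberty 1 (15077) and Postpuberty 1 (14950) and lowest in Prepuberty 2 (6655). It was also high, at 13719, in Prepuberty 3, the second highest library for NEFL and NEFM. The low oligodendrocyte sum in Postpuberty 2 (6950) rested on MBP (1112 FPKM). Other genes of the list, such as MAG (308 FPKM) and MOG (336 FPKM), were not low there. The summed FPKM of 6 pituitary genes was 216 in Postpuberty 1, of which PRL, the hormone prolactin, gave 199.5, against 0.125 to 89.5 in the other libraries. That of the 4 measured choroid plexus and ependymal genes was 7645 in Puberty 3, mostly TTR, the transthyretin of the choroid plexus, against 16.1 to 736 in the other 7. The 6 vessel genes summed to 206 FPKM in Postpuberty 1 and 199.9 FPKM in Prepuberty 1, the highest of the 8 libraries, and their lowest sum was 113 FPKM in Prepuberty 2. The part of these cell types in the range of the members was not tested.

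The composition of the neurofilament mRNA also differed between libraries. The 4 chains summed to 104 FPKM in Postpuberty 1 and 1144 FPKM in Postpuberty 3, with 162 FPKM in Puberty 2. NEFM nearly equalled NEFL in 4 libraries, at 0.946 times its level in Postpuberty 2, 1.02 in Prepuberty 3, 1.07 in Puberty 1 and 1.13 in Postpuberty 3. In Prepuberty 1, Puberty 3, Postpuberty 1 and Puberty 2 the ratio was lower, at 0.289, 0.356, 0.402 and 0.439, and in Prepuberty 2 it lay in between, at 0.802. Each stage had libraries with a low ratio and libraries with a ratio near 1.

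INA made up 23.0% of the neurofilament FPKM in Postpuberty 1, where the sum was lowest, and 5.57% in Postpuberty 3, where it was highest. Its share was also small in Prepuberty 3 (6.39%), with the second highest sum (958 FPKM), but it was as small in Prepuberty 1 (6.22%), where the sum was 363 FPKM. NEFH contributed 4.92% in Postpuberty 2, 3.11% in Postpuberty 1 and 0.951% to 2.0% in the other 6 libraries, and 0.125% in Puberty 2. NEFL was 8.47 times as abundant as NEFH in Postpuberty 2 and 482 times in Puberty 2.

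**Figure D3:**
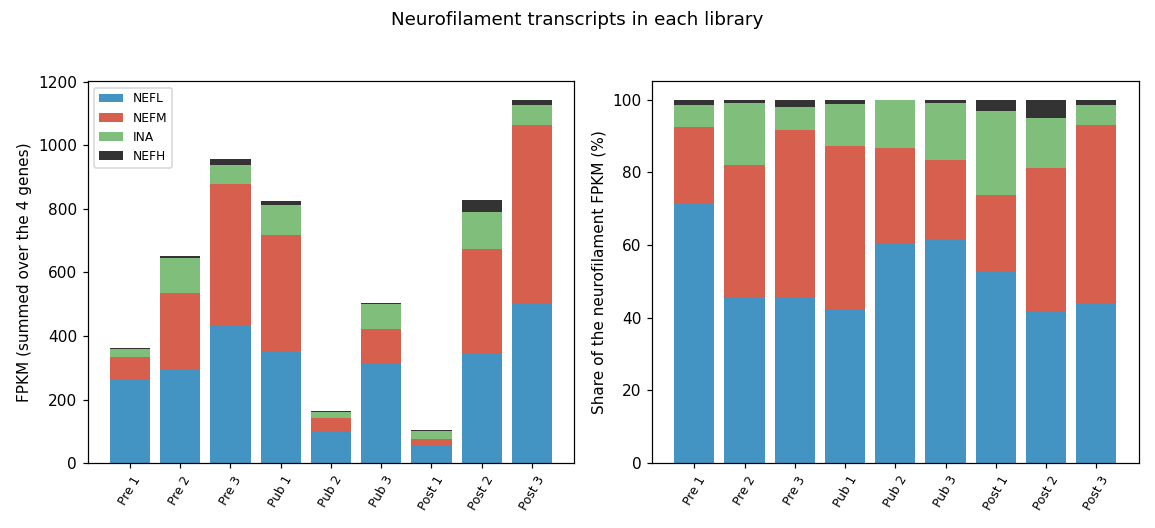
FPKM of NEFL, NEFM, INA and NEFH stacked for each of the 9 libraries (left, linear axis from 0) and their shares of the sum in percent (right); Pre, Pub and Post stand for prepuberty, puberty and postpuberty. The sums run from 104 FPKM in Post 1 to 1144 FPKM in Post 3, and the NEFM share from 20.7% in Pre 1 to 49.3% in Post 3.

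The members were next set against 27 other neuron genes, whose mean level on the log2(FPKM + 1) scale was 3.98 in Prepuberty 1, 5.60 in Prepuberty 2, 4.54 in Prepuberty 3, 4.87 in Puberty 1, 3.44 in Puberty 2, 5.02 in Puberty 3, 4.18 in Postpuberty 1, 5.26 in Postpuberty 2 and 4.89 in Postpuberty 3. The mean was thus lowest in the 3 libraries in which INA and STMN2 were low. Among the most abundant genes behind it were SNAP25, SYP and VAMP2, of which SNAP25, a protein of synaptic vesicle fusion, ranged from 144 to 558 FPKM over the 8 libraries. SYP, a protein of synaptic vesicles, ranged from 44.3 to 197 FPKM.

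ENO2 and INA followed that mean most closely. For ENO2, Pearson's r over the 8 libraries was 0.98 and Spearman's rho 0.90 (two-sided exact permutation test, p = 0.000149 and 0.00456, Benjamini-Hochberg adjusted p = 0.00134 and 0.0205 over 9 members). For INA, r was 0.93 and rho 0.90 (exact permutation p = 0.000595 and 0.00456, adjusted p = 0.00268 and 0.0205). Without Prepuberty 1 and Prepuberty 2, the 2 libraries farthest from the median, r was 0.98 for ENO2 and 0.93 for INA. These genes had been chosen as variable neuron genes in the same libraries, so the p-values describe these libraries and are no independent evidence.

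Over these 8 libraries the light, medium and heavy chains had the lowest correlations with the same mean. For NEFM r was 0.56 and rho 0.29 (exact permutation p = 0.147 and 0.501, adjusted p = 0.189 and 0.563), for NEFL r was 0.46 and rho 0.24 (exact permutation p = 0.291 and 0.582, adjusted p = 0.327 and 0.582), and for NEFH r was 0.39 and rho 0.33 (exact permutation p = 0.331 and 0.428, adjusted p = 0.331 and 0.550). Without Prepuberty 1 and Prepuberty 2 the r of NEFM, NEFL and NEFH was 0.60, 0.71 and 0.60, and without Postpuberty 1 it was 0.37, 0.085 and 0.22. With all 9 libraries it was 0.66, 0.62 and 0.68 (exact permutation, adjusted p = 0.0596, 0.0758 and 0.0596), and UCHL1, with an r of 0.66, was no longer above NEFM and NEFH. Prepuberty 2 had the highest mean of the other neuron genes but only the fifth highest NEFM and the sixth highest NEFL, and Prepuberty 3 had the second highest NEFL and NEFM with a mean of 4.54. With the mean of 16 genes of large-calibre projection and fast-firing neurons, the r of NEFL, NEFM and NEFH over the 8 libraries was 0.57, 0.77 and 0.58 and rho 0.67, 0.71 and 0.71, given as a description without a test. With the same 16 genes r was higher for INA (0.91), ENO2 (0.87), STMN2 (0.85), UCHL1 (0.80) and MAP1B (0.79), and lower for GAP43 (0.38). With the mean of the 19 hypothalamic marker genes the r of NEFL, NEFM and NEFH was 0.74, 0.69 and 0.33. For the other members r with that mean was 0.77 (STMN2), 0.68 (UCHL1), 0.47 (MAP1B), 0.45 (INA), 0.35 (ENO2) and -0.03 (GAP43). Of these 19 genes, 9 were below 1 FPKM in all 9 libraries. That the 3 chains had a higher r with the 16 genes than with the other neuron genes was not tested. Nor was the difference of the 3 chains from INA.

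Between these groups, UCHL1 had an r of 0.80 and a rho of 0.71 (exact permutation p = 0.0163 and 0.0576, adjusted p = 0.0488 and 0.173), STMN2 an r of 0.74 and a rho of 0.55 (exact permutation p = 0.0371 and 0.171, adjusted p = 0.0834 and 0.256), MAP1B an r of 0.70 and a rho of 0.64 (exact permutation p = 0.0573 and 0.0962, adjusted p = 0.103 and 0.216) and GAP43 an r of 0.65 and a rho of 0.55 (exact permutation p = 0.0798 and 0.171, adjusted p = 0.120 and 0.256). Their r without Prepuberty 1 and Prepuberty 2 was 0.79, 0.76, 0.60 and 0.56. With all 9 libraries the adjusted p of r was 0.0596 for UCHL1, 0.0272 for STMN2, 0.0104 for MAP1B and 0.0318 for GAP43. With stage means subtracted, r was 0.99 for ENO2, 0.94 for INA and 0.81 for UCHL1, and 0.48, 0.57 and 0.45 for NEFL, NEFM and NEFH. By exact permutation within stages the adjusted p was 0.125 for ENO2, INA and UCHL1, and no member passed 0.05. The smallest p that this permutation can give is 0.0139. A member alone at that p could not have passed after adjustment over 9 members, so no conclusion is drawn from it.

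**Figure D4:**
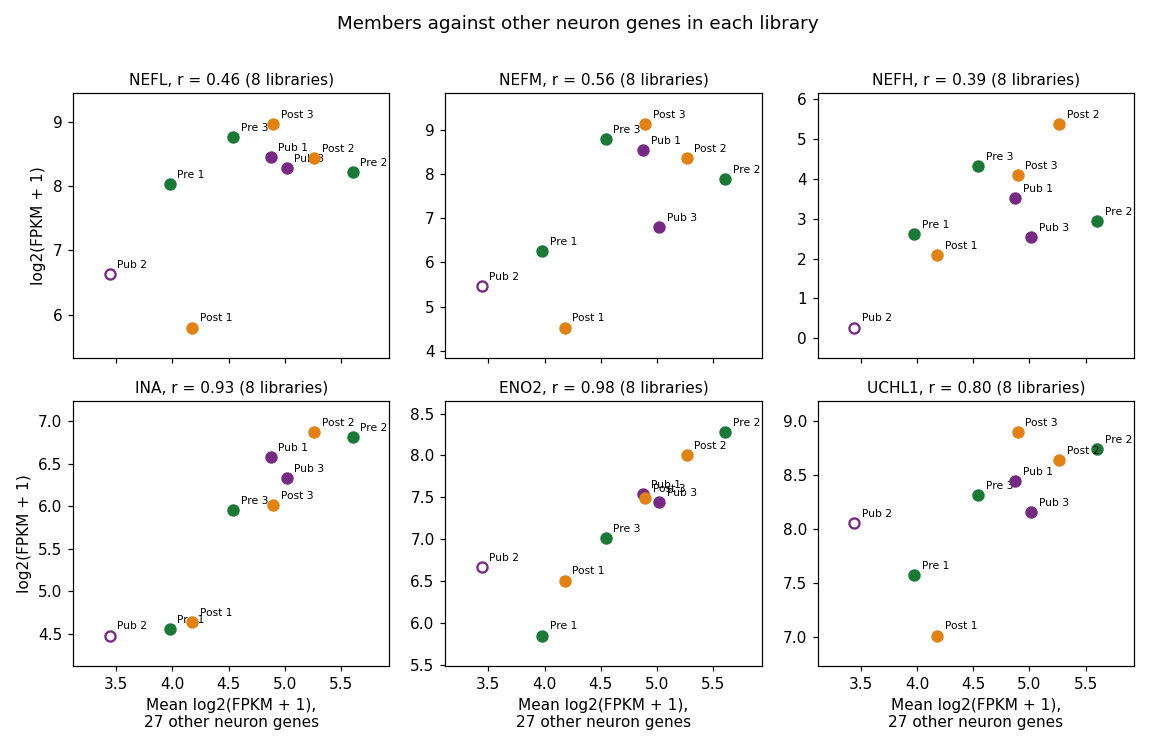
Level of 6 members (log2(FPKM + 1), each panel with its own axis) against the mean log2(FPKM + 1) of 27 other neuron genes; points are the 9 libraries coloured by stage, the open point is Pub 2, and r is over the 8 libraries without it. ENO2 (r = 0.98) and INA (r = 0.93) rise along the axis, while NEFL (r = 0.46) falls away only in Post 1 and Pub 2.

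Among themselves the members were positively correlated over the 8 libraries in all 36 pairs, with r from 0.38 for NEFL and GAP43 to 0.96 for STMN2 and UCHL1 and a median of 0.73. The highest r of NEFL was with NEFM (0.91), that of NEFM was with STMN2 (0.93), and that of INA was with ENO2 (0.95). These are descriptions, with no test, of genes measured in the same 8 libraries. Among 6849 other genes with a mean of at least 5 FPKM, those most like NEFM were SPR (r = 0.97), PRPF40B, HCN2, CFL2, LOC114110252, PNPLA2, MAP6, VPS11, RAB3B and REEP1 (r = 0.92). Those most like STMN2 were REEP1 (r = 0.99), VPS11, MAP6, LOC101120326, HCN2, OPTN, TUBB4B, SMDT1, FADS3 and SPR (r = 0.97). REEP1, VPS11, MAP6, HCN2 and SPR were thus in both lists.

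None of the 9 members passed the test in any stage comparison. In prepuberty versus puberty, limma called 0 of the 9 members (adjusted p below 0.05 with a change of 2-fold or more in either direction), and it called 0% of the 14238 genes tested. At an unadjusted p below 0.05 there were 0 members and 259 genes. For 0 members did every library of one stage lie above every library of the other, which was the case for 5.16% of all genes. The median log2 fold change was 0.55 over the members and 0.14 over all genes, and without Puberty 2 it was -0.09 and -0.02.

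NEFH had a mean of 10.3 ± 7.71 FPKM at prepuberty and 5.15 ± 5.13 FPKM at puberty (SD, n = 3 libraries in each). The log2 fold change of NEFH was 1.18 (SE 0.99, 95% interval -1.05 to 3.42, limma adjusted p = 0.838). MAP1B had 44.8 ± 17.8 and 34.5 ± 36.9 FPKM, with a log2 fold change of 1.44 (SE 1.16, interval -1.17 to 4.05, limma adjusted p = 0.838). Both differences rested on Puberty 2: without it they were 0.26 for NEFH and -0.13 for MAP1B (interval -1.54 to 1.29), and the log2 fold changes of the 9 members ran from -0.68 to 0.56. In that fit 0 members and 0% of 14209 genes were called, 0 members and 236 genes had an unadjusted p below 0.05, and the stages did not overlap for 0 members and 11.7% of all genes.

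In puberty versus postpuberty, limma called 0 of the 9 members and 0% of all genes, and 0 members and 305 genes had an unadjusted p below 0.05. The stages did not overlap for 0 members and for 7.32% of all genes. NEFH was 5.15 ± 5.13 FPKM at puberty and 20.1 ± 19.1 FPKM at postpuberty (SD, n = 3 libraries in each), a log2 fold change of -1.75 (SE 0.99, 95% interval -3.99 to 0.48, limma adjusted p = 0.780). For MAP1B it was -1.29 (SE 1.16, interval -3.90 to 1.33, limma adjusted p = 0.780). Without Puberty 2 these were -0.83 and 0.28, with 0 members and 0% of all genes called, 0 members and 300 genes at an unadjusted p below 0.05, and no overlap for 0 members and 14.1% of all genes.

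In prepuberty versus postpuberty, the members had a median log2 fold change of 0.07, and all genes -0.05. limma called 0 members and 0% of all genes, with 0 members and 116 genes at an unadjusted p below 0.05, and 0 members and 4.57% of all genes had no overlap. NEFL had 330 ± 91.5 and 300.0 ± 226 FPKM (SD, n = 3 libraries in each), a log2 fold change of 0.60 (SE 0.80, 95% interval -1.20 to 2.40, limma adjusted p = 1) that was -0.37 without Postpuberty 1. ENO2 had 165 ± 131 and 175 ± 83.4 FPKM, a log2 fold change of -0.29 (SE 0.61, interval -1.67 to 1.10, limma adjusted p = 1) that was 0.31 without Prepuberty 1 and 0.05 without Postpuberty 2. Fitted without Puberty 2, this comparison had 0 members and 0% of all genes called, 265 genes and 0 members at an unadjusted p below 0.05, and 4.53% of all genes and 0 members with no overlap.

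These intervals were wide, reaching beyond a 2-fold difference in both directions in each comparison of all 9 libraries for every member except NEFH and GAP43, so differences of that size were not detectable with 3 animals a stage. The share of the variance that lay between stages was 9.61% for the median member and 13.5% for the median gene over the 8 libraries, and 3.68% and 19.0% over all 9.

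**Figure D5:**
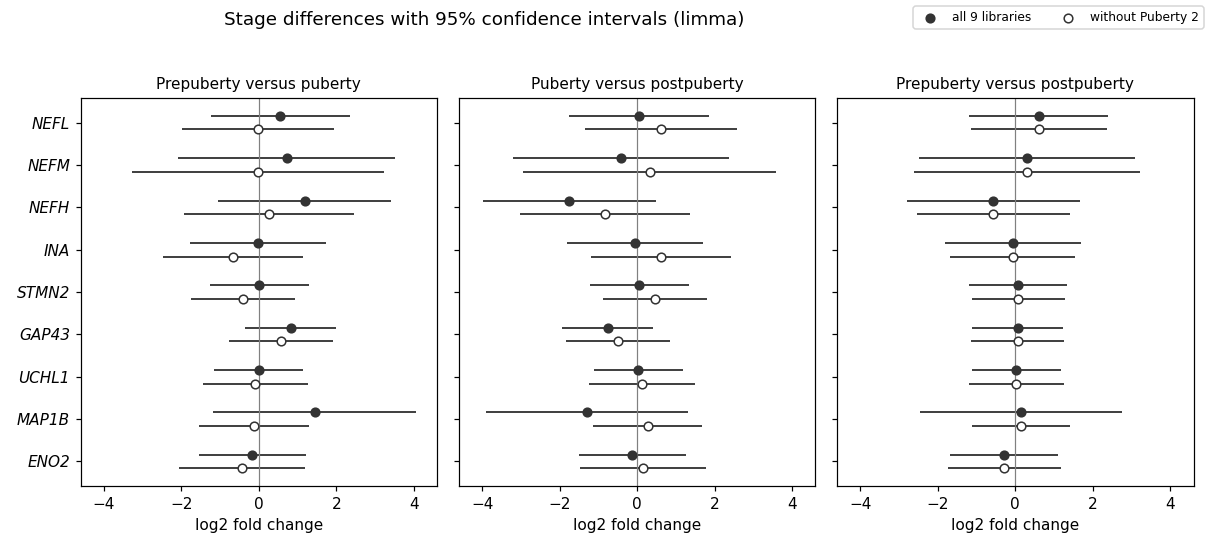
log2 fold changes of the 9 members in 3 stage comparisons, first stage over second, with 95% confidence intervals from limma; filled points use all 9 libraries and open points leave out Puberty 2. All intervals cross 0, and the points of NEFH and MAP1B move most when Puberty 2 is left out.

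Related genes of the same families and pathways were also measured. Of the other stathmins, STMN3 ranged from 90.4 to 285 FPKM over the 8 libraries (3.15-fold), close to STMN2, whereas STMN1 ranged from 301 to 414 FPKM (1.38-fold) and STMN4 from 135 to 194 FPKM (1.44-fold). MARCKSL1 and DPYSL2, abundant growth-associated genes, ranged from 189 to 414 FPKM and from 161 to 237 FPKM. The median SD on the log2 scale was 0.51 over 19 stathmins and growth-associated genes that reached 1 FPKM. limma called 0 of the 20 tested in each of the 3 comparisons, in either direction, and 0 of them had an unadjusted p below 0.05 with all 9 libraries.

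The microtubules on which axonal cargo moves are built of tubulins, and the 4 most abundant genes of that list were less variable than the neurofilaments. TUBB4A ranged 1.47-fold over the 8 libraries, TUBB2B 1.49-fold, TUBB 1.72-fold and TUBB4B 2.71-fold. Of the 15 listed genes 12 had values, and those not named here ranged from 1.58-fold to 3.99-fold, the upper end close to STMN2 and MAP1B. Over 12 tubulins and microtubule-associated genes the median SD was 0.41, and over 14 motors and adaptors of axonal transport it was 0.44. Among the motors, KIF1A ranged from 73.0 to 137 FPKM, KIF1B from 62.9 to 77.6 FPKM and DYNC1H1 from 51.8 to 73.2 FPKM, but KIF5A, a kinesin that carries neurofilaments along axons, ranged from 17.2 to 102 FPKM (5.93-fold). limma called 0 of the 12 and 0 of the 14 in every comparison, and with all 9 libraries 1 transport gene had an unadjusted p below 0.05 in each comparison with postpuberty.

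Genes of large projection neurons and fast-firing neurons had a wide spread, with a median SD of 0.93 over 16 genes. SPP1 ranged from 111 to 324 FPKM, the vesicle protein VAMP1 from 38.7 to 204 FPKM and parvalbumin (PVALB) from 8.29 to 69.9 FPKM. SPP1 and VAMP1 were lowest in Postpuberty 1, as were NEFL and NEFM, while PVALB was lowest in Prepuberty 1. limma called 0 of the 16 in each comparison and 0 of the 27 other neuron genes, and with all 9 libraries 1 of the 16 had an unadjusted p below 0.05 in prepuberty versus puberty, 0 of the 16 in the other comparisons and 0 of the 27 in any.

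The other intermediate filament genes had ranges of their own. GFAP of astrocytes was lowest in Prepuberty 2 (2348 FPKM) and highest in Prepuberty 1 (6624 FPKM), and vimentin (VIM) ranged from 53.3 FPKM in Prepuberty 2 to 272 FPKM in Postpuberty 1, where NEFL and NEFM were lowest. Peripherin (PRPH), a neuronal filament of motor and peripheral neurons that can assemble with neurofilaments, had 7.95, 0.0959 and 26.7 FPKM at prepuberty, 10.3, 0.715 and 5.62 FPKM at puberty, and 0, 0.0557 and 81.5 FPKM at postpuberty. The 3 libraries with the most PRPH, Postpuberty 3, Prepuberty 3 and Puberty 1, were also the 3 with the most NEFL and NEFM. PRPH was listed at 0 in Postpuberty 1, where NEFL and NEFM were lowest, but was near 0 in Prepuberty 2 and Postpuberty 2 as well, where NEFM was 238 and 327 FPKM. limma called 0 of the 6 other intermediate filament genes in each comparison, and 0 had an unadjusted p below 0.05 with all 9 libraries.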

How the data were processed

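RNA-seq libraries of hypothalamic tissue from 9 Dolang ewes, 3 at each stage, were analysed from the expression estimates deposited by the authors. The authors trimmed the reads with Trimmomatic (0.32 in the submitters' processing notes), aligned them with HISAT2 to the sheep assembly ARS-UI_Ramb_v3.0, and estimated FPKM for each transcript with StringTie. The deposited values were not whole numbers and give no counts, so the depth of a library was not used and no counting interval is given. RefSeq mRNAs were assigned to genes with the RefSeq gene table of the same assembly (76682 of 76684 matched), and their FPKM were summed for each gene. TUBB3 had no entry of its own there and is not reported.

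The members and all gene lists were chosen with earlier results of these data known. Stages were compared with limma 3.58.1 (R 4.3.3) on log2(FPKM + 1), without scaling between libraries, in 1 fit of 9 libraries with a variance trend. The 14238 genes with a mean of at least 0.5 FPKM in a stage were tested, with Benjamini-Hochberg adjustment over all of them. Fold changes on this scale understate changes of low genes. The authors' RUVseq correction and edgeR tests of counts were not repeated. The smallest two-sided exact permutation p of 3 animals against 3 is 0.1, so separation of stages is given as a count.

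Genes named with fold changes were the neurofilament gene and the other member with the largest absolute change in each comparison. From each related list the 4 genes with the highest mean FPKM were named, apart from some that are not reported here, and STMN4 and the marker genes of other cell types were named beside them after their values were seen. Correlations used Python 3.11.15 with scipy 1.17.1. Alternatives covered pseudocount, filter, scaling, the transcript used, variance options, the replicate number as a block, the other neuron genes as a covariate and leaving out each library. The test script was tested on simulated data.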

Additional observations from a re-analysis of the deposited data

How the results depend on the processing

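Under all 21 alternative settings of the stage comparisons, limma called 0 members and 0 genes in each comparison. Without a filter, 1 gene had an adjusted p below 0.05 in each comparison with prepuberty, but genes below the filter cannot reach the fold threshold on this scale. With the replicate block 0 members were called in prepuberty versus puberty, where 281 genes had an unadjusted p below 0.05. The replicate numbers did not pair the animals: only 2 of 9 pairs of same-numbered libraries from different stages deviated together with r above 0.1, and 3 of 9 libraries matched their own number best. Leaving out each library in turn moved the log2 fold change of MAP1B between -0.13 (without Puberty 2) and 2.55 (without Puberty 1) in prepuberty versus puberty, and between -2.40 (without Puberty 1) and 0.28 (without Puberty 2) in puberty versus postpuberty. The log2 fold change of NEFL in prepuberty versus postpuberty lay between -0.37 (without Postpuberty 1) and 1.22, and that of ENO2 between -0.91 and 0.31 (without Prepuberty 1), with 0.05 without Postpuberty 2. The number of members whose stages did not overlap ranged from 0 to 2 in prepuberty versus puberty (2 without Puberty 1, with 14.4% of all genes) and from 0 to 2 in puberty versus postpuberty (1 without Puberty 1, with 16.8% of all genes, and 2 without Postpuberty 1, with 14% of all genes). Equal totals, median ratio and quantile scaling shifted the median log2 fold change of all genes by 0.14, -0.12 and -0.15 in prepuberty versus puberty and by -0.11, 0.17 and 0.20 in puberty versus postpuberty, and the signs of the NEFH and MAP1B differences did not change under them.

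The correlations of ENO2 and INA with the other neuron genes kept an adjusted p of r below 0.05 when any 1 further library was left out. Their rho did not: without Prepuberty 1, 2 or 3 or Postpuberty 1 or 2, 0 members had an adjusted p of rho below 0.05. That of UCHL1 did not without Prepuberty 1 (0.137), Prepuberty 2 (0.0804), Prepuberty 3 (0.0768), Puberty 1 (0.0917), Postpuberty 1 (0.121) or Postpuberty 2 (0.103), nor with upper quartile scaling (0.0621). That of GAP43 passed without Puberty 3 (r = 0.92, adjusted p = 0.0185). The lowest r was that of NEFL without Postpuberty 1 (0.085). The cause was not tested.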
